A study of Mus musculus with 4 samples.

Results

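Bone morphogenetic protein (BMP) signaling was read in the Tbx1 lineage through 10 genes: the ligands Bmp2, Bmp4, Bmp5 and Bmp7, the secreted antagonist Grem1, the inhibitory Smads Smad6 and Smad7, and the target genes Id1, Id2 and Id3. The genes were taken by symbol from the 32285 genes of 4 single-cell count matrices, in which each symbol was found. The study asked how loss of the histone methyltransferase gene Kmt2d affects cells of the Tbx1 lineage in embryos that already lack a working copy of Tbx1. Cells came from mouse embryos at embryonic day 9.5 (E9.5), from the pharyngeal region and heart, and were sorted for green fluorescence (GFP) and exclusion of DAPI. All embryos of both groups carried Tbx1Cre/+, a knock-in of Cre that makes them heterozygous for Tbx1, and GFP F/+, a reporter that is switched on by Cre. The conditional heterozygotes (cHet) carried Kmt2d F/+ and the conditional knockouts (cKO) Kmt2d F/F, so that Cre removed 1 or both copies of Kmt2d only in cells that had expressed Tbx1Cre and in their descendants. There was no group with an intact Kmt2d, so every comparison is of cKO with cHet. The mice were labelled Swiss Webster, kept on a mixed background per the study's methods. Each genotype had 2 libraries, Rep1 from 4 pooled embryos and Rep2 from 3 pooled embryos per library, and single embryos of a pool were not marked, so that n = 2 per genotype.

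BMP ligands are secreted dimers that bind pairs of type I and type II receptors, which then phosphorylate SMAD1, SMAD5 and SMAD9; these enter the nucleus with SMAD4. Among the targets are the ID proteins, which lack a DNA-binding domain and hold basic helix-loop-helix factors inactive, and SMAD6 and SMAD7, which feed back on the receptors and the SMAD complex. GREM1 binds BMP dimers outside the cell and keeps them from their receptors. In the pharyngeal region and heart, BMP signaling is known for its part in cardiac differentiation, in outflow tract and valve formation and in patterning of the arches.

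Promoter sequences of 6 of the 10 genes (Bmp4, Bmp5, Grem1, Smad6, Id2 and Id3) were found in a RefSeq table on GRCm38.p6, which gives 250 bases before to 50 bases after the start of a gene. They were searched on both strands for GGCGCC, a GC-rich element known to bind SMAD1 and SMAD5, and for GTCTAGAC, a palindromic SMAD-binding element; neither overlapped the other. GGCGCC was present in the promoters of Grem1, 78 bases before the start, and Id2, 231 bases before the start, and is present in 11.9% of all 32851 promoters in the table. GTCTAGAC was present in Smad6, beginning 4 bases before the start and running across it, and is present in 0.213% of all promoters. The windows around these matches are shown because Smad6, Grem1 and Id2 carry the patterns described below, with the matched letters in capitals; a match is a description and no evidence of binding. The coordinates are chr2:113758693-113758752 (minus strand) for Grem1, chr9:64022030-64022089 (minus strand) for Smad6 and chr12:25096283-25096342 (minus strand) for Id2.
Grem1: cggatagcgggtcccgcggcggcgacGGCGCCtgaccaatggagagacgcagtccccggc
Smad6: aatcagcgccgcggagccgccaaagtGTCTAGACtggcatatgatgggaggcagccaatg
Id2: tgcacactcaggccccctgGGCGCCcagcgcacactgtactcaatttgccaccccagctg

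After filtering, the libraries held 5869 and 9350 cells of cHet (Rep1 and Rep2) and 6291 and 11938 cells of cKO. They came from totals of 179454146 to 234726019 unique molecular identifiers (UMIs), with median depths of 17240 to 22972 UMIs per cell. Before filtering, cHet Rep1 stood apart with 37093 barcodes, 22331 of them with at least 1000 genes. These counts were 9307 and 7842 in cKO Rep1, 13192 and 10896 in cHet Rep2 and 16775 and 14012 in cKO Rep2. With a minimum of 1000 genes per cell, cHet Rep1 kept 17982 cells at a median of 3974 UMIs. Clustering was done without the 10 genes and 41 further genes of the BMP pathway. Once clusters of the same name were joined, 21 groups of cells remained, called types here. Of these, 11 matched marker lists, and 10 stayed unnamed and are called by their cluster number and leading genes. The named types resemble cardiac muscle, anterior second heart field (aSHF), posterior second heart field (pSHF), branchiomeric muscle (BrM), multilineage primed progenitors (MLPs), ectoderm, endoderm, otic vesicle, neuronal cells, endothelium and endothelial progenitors. BrM joins clusters 10, 12 and 13, whose mix differed between libraries. Cluster 12 held 178 of 419 BrM cells in cHet Rep1, 183 of 400 in cKO Rep1, 246 of 1110 in cHet Rep2 and 423 of 1378 in cKO Rep2. The name aSHF rests on 3 of 8 markers (Rgs5, Hand2 and Tnc, not Isl1, Nkx2-5, Fgf8, Fgf10 or Tbx1), and that cluster also passed 3 of 6 MLP markers, while the pSHF cluster passed all 7 of its own and 5 of the 8 aSHF markers; differences between both are differences between these clusters. The cardiac muscle cluster passed all 8 of its own and 6 of the 8 aSHF markers, and the endoderm cluster 3 of the 8 aSHF markers. Levels given for aSHF are those of the cluster with that name. Some types were small: cardiac muscle had 140 and 216 cells in cHet and 38 and 241 in cKO, and endothelial progenitors 104 and 84 in cHet and 35 and 95 in cKO (Rep1 and Rep2). Where 4 values are listed below, the order is cHet then cKO of Rep1, followed by cHet then cKO of Rep2. Scores from Scrublet removed 4.03% to 5.78% of barcodes as doublets. The libraries of a replicate shared 12 (Rep1) or 46 (Rep2) barcodes, at most 0.472% of the smaller library, and libraries of different replicates shared 0. Kmt2d in all cells was at 17.4 and 23.9 CPM in cHet and 15.2 and 21.0 CPM in cKO (Rep1 and Rep2); the reads count 3′ ends and the floxed exons are not given in the sources used here, so these values do not check the deletion. The study checked it by RT-qPCR at E9.5 and reported that Kmt2d was significantly depleted in cKO against Tbx1Cre/+ embryos. It also reported no noteworthy change of Kmt2d between genotypes in its single-cell data.

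Levels across types are given as CPM, the counts of a gene scaled to a common total of UMIs, summed over the cells of a type, scaled over all types by TMM factors, as the mean ± SD over the 4 libraries. They are descriptions with no test, since the types come from clusters of the same cells. A UMI count does not depend on transcript length in the way read counts do, but capture differs between genes, and each gene is therefore compared only with itself across types.

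**Figure D1:**
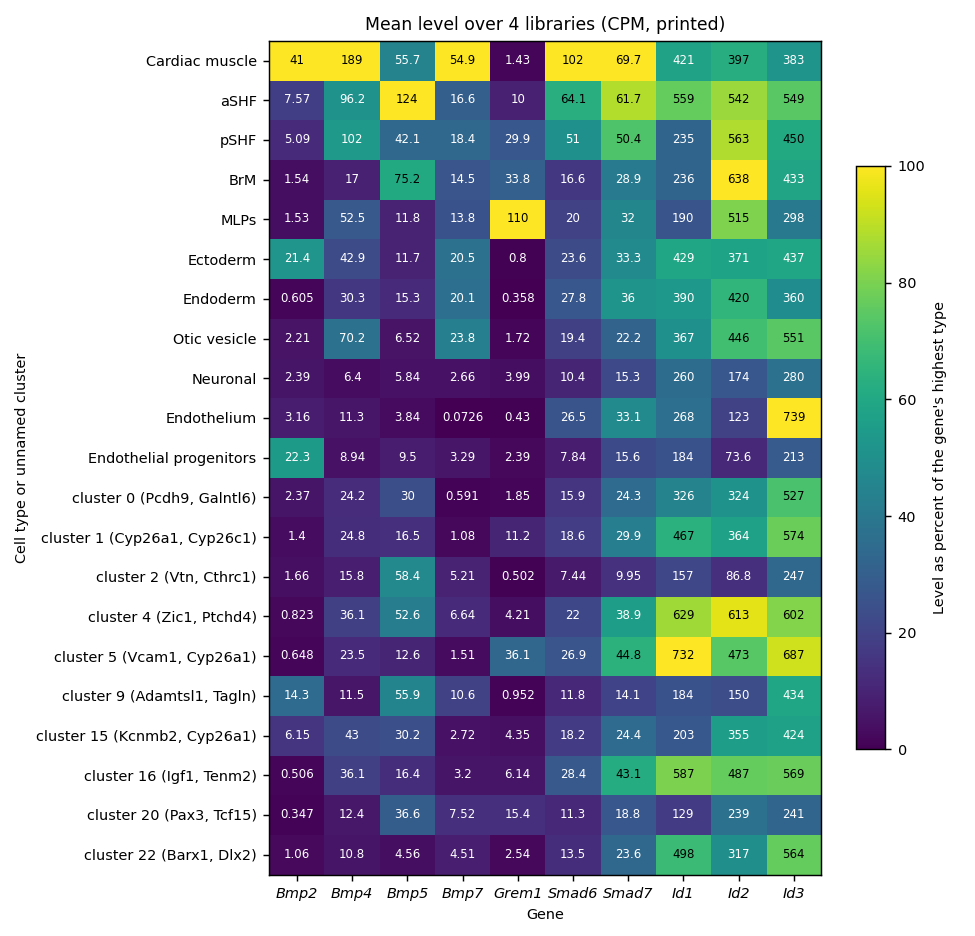
Mean level of each gene over 4 libraries (CPM, printed in each cell) in 21 types; the color gives the level as a percent of the gene's highest type. Bmp2, Bmp4, Bmp7, Smad6 and Smad7 were highest in cardiac muscle, Bmp5 in aSHF, Grem1 in MLPs, Id1 in cluster 5, Id2 in BrM and Id3 in endothelium.

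Of the ligands, Bmp2, Bmp4 and Bmp7 had their highest mean level in cardiac muscle and Bmp5 in aSHF. Bmp4, which in the early heart is known from the outflow tract and second heart field, was at 189 ± 72.5 CPM in cardiac muscle, 102 ± 12.3 in pSHF, 96.2 ± 19.4 in aSHF and 70.2 ± 25.4 in otic vesicle (SD, n = 4 libraries). The median over types was 24.8 CPM and the lowest mean 6.40 CPM, in neuronal cells. In cardiac muscle the 4 libraries held Bmp4 at 175, 94.3, 224 and 262 CPM, and in pSHF at 112, 112, 87.1 and 95.8 CPM. The lowest cardiac value, from the library with 38 cardiac cells, lay within the range of pSHF, and no neighbors in the order of the 21 types were separated in all their libraries for Bmp4. Among cells thinned to 5000 UMIs, 31.6% to 64.7% of cardiac muscle cells per library had a Bmp4 UMI against 1.68% to 7.07% of neuronal cells; without thinning these shares were 55.3% to 88.0% and 4.47% to 17.3%, at median depths of 18557 to 27814 and 17631 to 22839 UMIs per cell. Bmp4 (chr14:46383520-46390669, minus strand, GRCm38) overlaps the antisense gene Gm15222 and the gene Gm15217 on the opposite strand, and the strand setting of the counting is not given in the sources used here, so reads of Bmp4 and these genes may not be fully separated.

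Bmp2, which is known for its part in the atrioventricular canal, was measured in few types. Its level was 41.0 ± 25.0 CPM in cardiac muscle, 22.3 ± 4.70 in endothelial progenitors, 21.4 ± 5.27 in ectoderm and 14.3 ± 4.99 in cluster 9 (led by Adamtsl1 and Tagln), and 17 of 21 types were under 10 CPM. The cardiac values ranged over 33.4, 10.7, 50.2 and 69.5 CPM in the same order of libraries, so that the lowest library lay below all 4 libraries of endothelial progenitors. These 4 types stood apart from the rest: cluster 9 was higher than aSHF, the fifth type, in each of the 4 libraries without overlap. A Bmp2 UMI was present in 2.63% to 28.2% of thinned cardiac cells; before thinning the shares were 7.89% to 55.6%, against at most 1.02% of the cells of any library in cluster 20 (led by Pax3 and Tcf15), at median depths of 18557 to 27814 and 18657 to 27212 UMIs per cell.

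Bmp5, a ligand of the BMP7 subfamily, was highest in aSHF, at 124 ± 9.65 CPM, with 118, 113, 129 and 134 CPM in the 4 libraries. All 4 values were above those of BrM, the next type, which was at 75.2 ± 22.1 CPM with 56.6, 58.2, 83.2 and 103 CPM. Cluster 2 (led by Vtn and Cthrc1), cluster 9, cardiac muscle and cluster 4 (led by Zic1 and Ptchd4) followed at 58.4, 55.9, 55.7 and 52.6 CPM and overlapped one another. Bmp5 was lowest in endothelium, at 3.84 ± 0.596 CPM. The pSHF cluster was at 42.1 ± 3.82 CPM of Bmp5, and none of its 4 libraries reached the lowest of the aSHF cluster, while the libraries of both overlapped for Bmp4. Bmp5 (chr9:75775364-75900310, plus strand) overlaps Gm47723 on its own strand and the antisense gene Gm26903, so its counts carry the same limit as those of Bmp4.

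Bmp7, also known from epithelia and from early myocardium, was at 54.9 ± 9.94 CPM in cardiac muscle, with 63.9, 40.7, 58.3 and 56.8 CPM per library, and no other type reached these values. Otic vesicle, ectoderm and endoderm came next, at 23.8 ± 3.82, 20.5 ± 0.978 and 20.1 ± 4.14 CPM, and their libraries overlapped. These 3 epithelial types were followed by pSHF at 18.4 ± 2.92 and aSHF at 16.6 ± 1.69 CPM; the libraries of pSHF overlapped those of all 3, and those of aSHF overlapped only endoderm among the 3. The highest of the unnamed clusters, cluster 9, was at 10.6 CPM on average. Endothelium was lowest, with at most 0.181 CPM in a library and at most 0.424% of its cells with a UMI, against 55.0% to 72.7% of cardiac muscle cells, at median depths of 15941 to 27276 and 18557 to 27814 UMIs per cell.

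Grem1, whose product traps BMP dimers, was highest in MLPs, at 110 ± 32.7 CPM, 27.5 times its median over types. The 4 libraries held 79.9, 85.8, 125 and 149 CPM, and all were above the libraries of the next types: cluster 5 (led by Vcam1 and Cyp26a1) at 36.1, BrM at 33.8 ± 8.97 and pSHF at 29.9 ± 6.51 CPM. Grem1 was also among the 10 genes that lead the MLP cluster by fold, although it was not used in clustering. At the other end, ectoderm, cluster 2, endothelium and endoderm were all under 1 CPM on average, and cardiac muscle was at 1.43 ± 1.93 CPM. The types with the most Bmp2, Bmp4 and Bmp7 and the type with the most Grem1 were thus different ones, and across the 21 types the levels of Grem1 and Bmp4 had a Pearson r of 0.18 (Spearman rho 0.19). After thinning, 27.6% to 48.8% of MLPs per library had a Grem1 UMI, and before thinning 60.6% to 73.4%, against at most 1.15% of endoderm cells in any library either way, at median depths of 14773 to 19886 and 19517 to 23037 UMIs per cell.

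**Figure D2:**
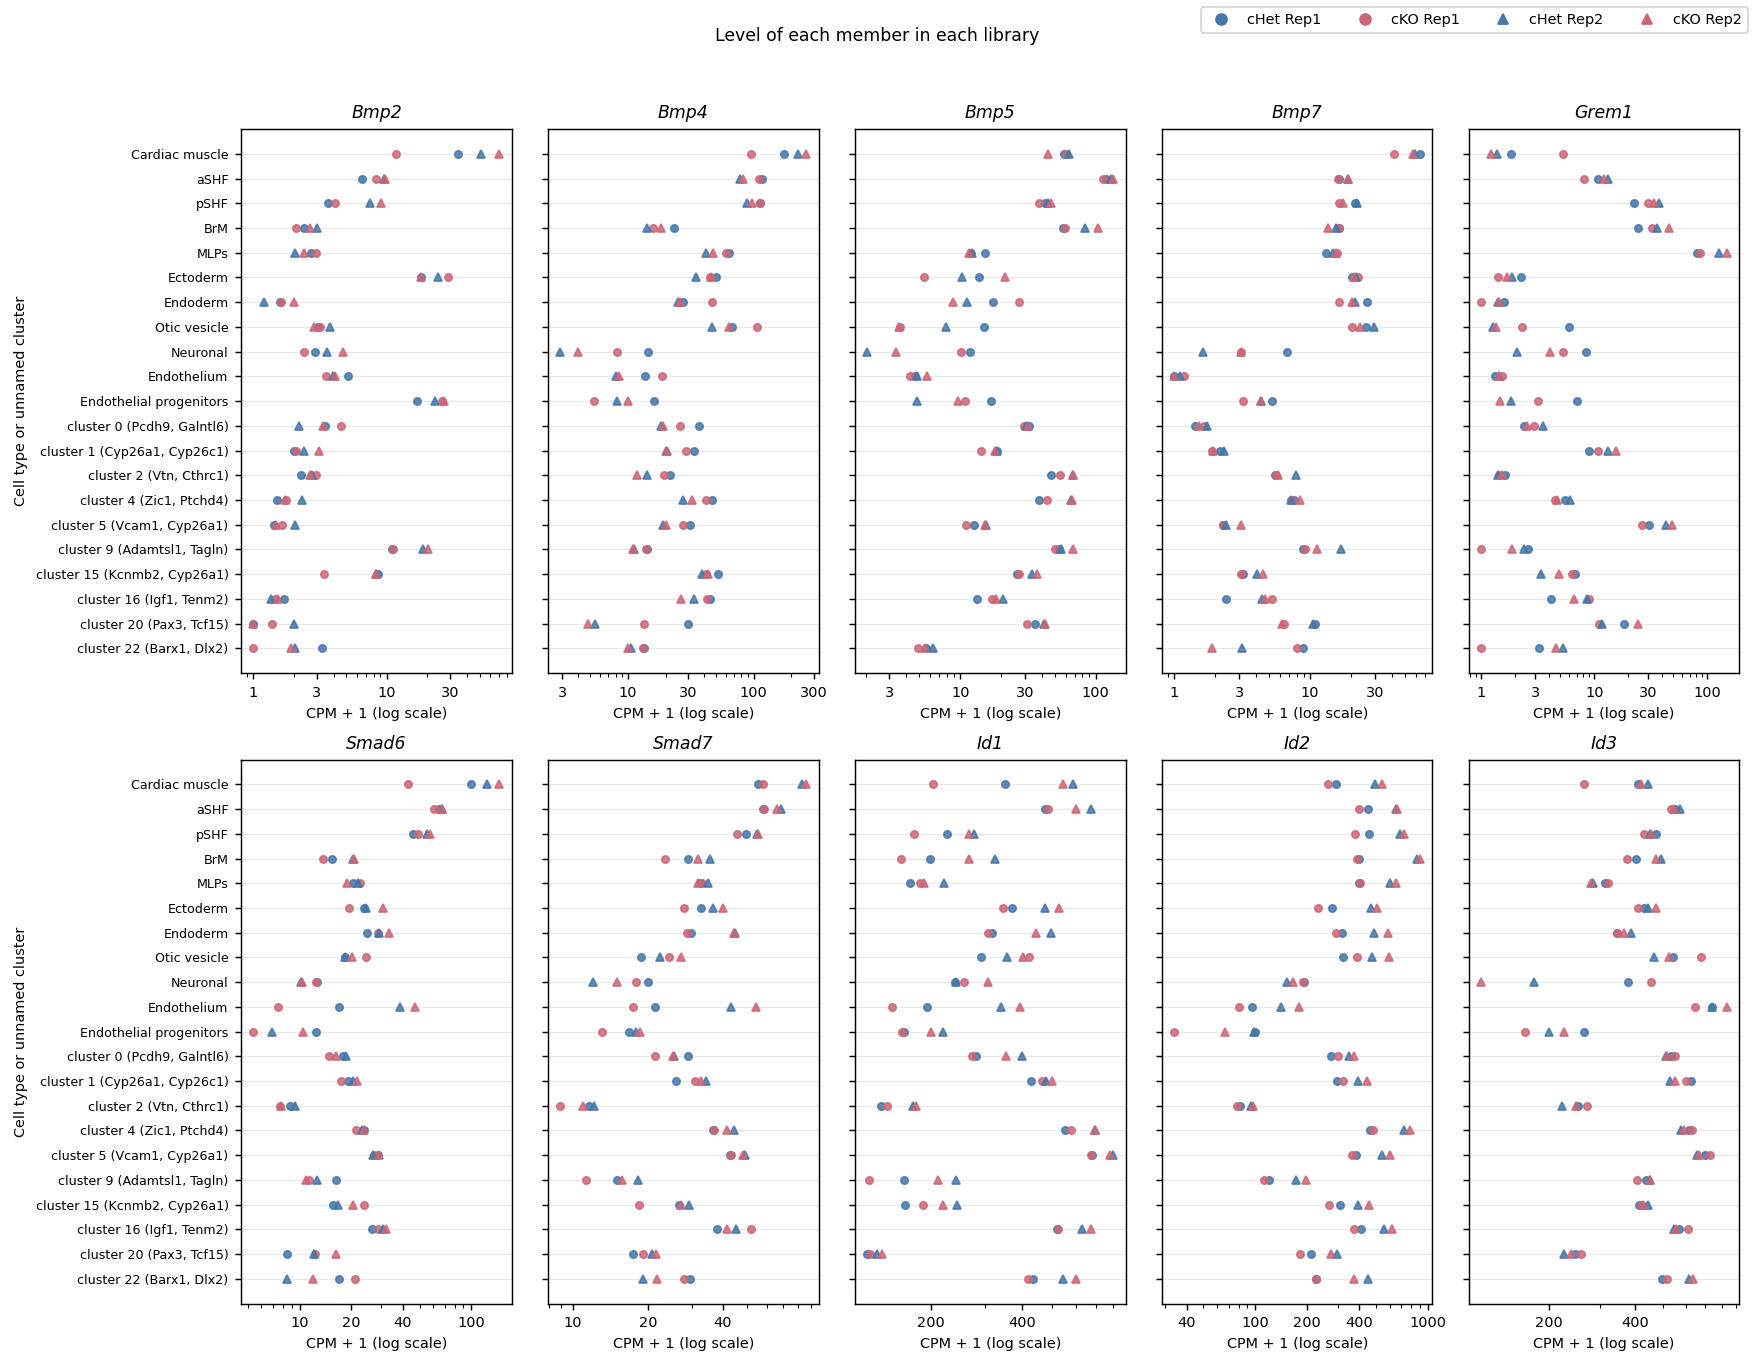
Level of each gene (CPM + 1, log scale) in each of the 4 libraries for 21 types; blue is cHet, red is cKO, circles are Rep1 and triangles Rep2. For Id1 and Id2 the triangles lie to the right of the circles in nearly all types, and for Bmp4 to the left in most.

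The inhibitory Smads followed one another. Smad6, which is known to act mainly on BMP receptors, was at 102 ± 44.5 CPM in cardiac muscle, 64.1 ± 3.30 in aSHF and 51.0 ± 5.58 in pSHF. The next type, cluster 16 (led by Igf1 and Tenm2), was at 28.4 ± 2.42 CPM, and pSHF was above it in all 4 libraries without overlap. Smad7, which acts on both BMP and TGF-β receptors, was at 69.7 ± 16.4 CPM in cardiac muscle, 61.7 ± 5.37 in aSHF and 50.4 ± 4.69 in pSHF, and aSHF was above pSHF without overlap for both genes. Both were lowest in cluster 2, at 7.44 ± 0.851 CPM for Smad6 and 9.95 ± 1.45 CPM for Smad7. In cardiac muscle Smad6 was spread over 98.9, 41.8, 122 and 145 CPM and Smad7 over 54.3, 56.8, 82.3 and 85.5 CPM, so that the library with 38 cardiac cells was the lowest for Smad6 but not for Smad7. Endothelium differed between replicates for both: Smad6 was at 16.0 and 6.52 CPM in Rep1 and 37.5 and 46.0 CPM in Rep2, and Smad7 at 20.4 and 16.5 CPM in Rep1 and 42.0 and 53.5 CPM in Rep2.

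The Id genes were present in every type, and their order differed from gene to gene. Id1 was highest in cluster 5, at 732 ± 65.0 CPM, followed by cluster 4 (629 ± 74.2), cluster 16 (587 ± 78.8) and aSHF (559 ± 94.8), and lowest in cluster 20, at 129 ± 6.65 CPM. Id2 was highest on average in BrM, at 638 ± 283 CPM, but its libraries held 397, 388, 863 and 902 CPM, and it overlapped cluster 4 (613 ± 165) and pSHF (563 ± 173). Id3 was highest in endothelium, at 739 ± 78.3 CPM, followed by cluster 5 (687 ± 31.6), which was above the third type without overlap. Endothelium thus had the highest mean of Id3, though its libraries (642 to 834 CPM) overlapped those of cluster 5 (656 to 725 CPM). It had little Id2, at 123 ± 44.8 CPM. Endothelial progenitors, marked by Etv2, Tal1 and Lmo2, were lowest of all types for both Id2 (73.6 ± 31.1 CPM) and Id3 (213 ± 41.7 CPM), and among the 4 lowest for Id1 (184 ± 29.1 CPM). With thinned cells, 8.57% to 32.7% of endothelial progenitors had an Id2 UMI against 63.2% to 89.6% of BrM cells. Between the highest type and the median over types the ratio was 2.25 for Id1, 1.72 for Id2 and 1.69 for Id3, smaller than the 5.26 of Smad6 or the 7.62 of Bmp4.

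For the order of types, few neighbors could be told apart. Of the 20 steps from a type to the next lower one, the 4 libraries did not overlap in 3 steps for Bmp7 and Id3, in 2 for Bmp5 and Smad6, in 1 for Bmp2, Grem1 and Smad7, and in 0 for Bmp4, Id1 and Id2. The steps not named above lay lower in the order, below cluster 0 for Bmp5, below clusters 1 and 0 for Bmp7, and below cluster 0 and endoderm for Id3.

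**Figure D3:**
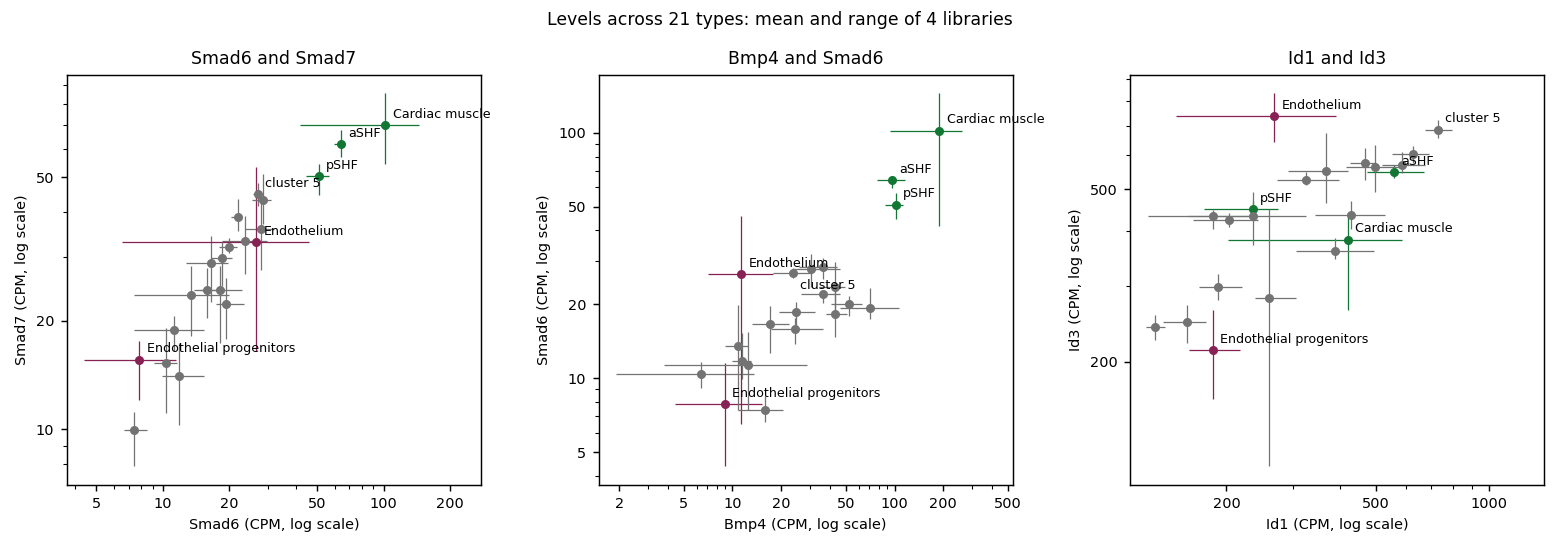
Levels across 21 types (CPM, log scales) for Smad6 and Smad7, Bmp4 and Smad6, and Id1 and Id3; points are means and lines the range of 4 libraries, green for cardiac muscle, aSHF and pSHF and purple for endothelium and endothelial progenitors. Cardiac muscle, aSHF and pSHF lie at the upper right for the first pairs, and endothelium lies above the other types for Id3.

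Across the 21 types the most similar pair was Smad6 and Smad7, with a Pearson r of 0.94 and a Spearman rho of 0.96 on log2 levels. Bmp4 followed both (r of 0.84 with Smad6 and 0.74 with Smad7), and Smad7 and Id2, as well as Id1 and Id3, were each at 0.73. The least similar were Bmp2 and Grem1, at -0.33. These are descriptions over 21 types that share libraries, depth and scaling, and are given with no test. Among 11319 genes at 10 CPM or more, the 3 genes most like each member were named by the same measure. For Smad6 they were Smad7 (0.94), Etfbkmt (0.84) and Bmp4 (0.84), and for Smad7 they were Smad6 (0.94), Etfbkmt (0.77) and Bambi (0.77), a pseudoreceptor that blocks BMP and TGF-β receptors. For Bmp4 they were Gm15222 (0.94), which is its overlapping antisense gene, Smad6 (0.84) and Etfbkmt (0.81). Grem1 was most like Scn3a (0.83), a marker used for the MLPs, and Id1 most like Lrba (0.79), Mab21l2 (0.78) and Msx1 (0.73), the last a homeobox gene. Bmp7 was most like Cdh3 (0.88), the gene of P-cadherin. The remaining members were most like Gm26632 (0.79, Bmp2), P3h2 (0.82, Bmp5), Mat2b (0.83, Id2) and Aldh16a1 (0.77, Id3).

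Within types, pairs of members were read in the same cells after thinning to 5000 UMIs. In cardiac muscle a Bmp4 UMI was present in 59.6% of cells with a Smad6 UMI and 31.2% of cells without one in cHet Rep1, in 65.6% and 50.8% in cHet Rep2 and in 70.3% and 59.3% in cKO Rep2. The share was higher among cells with Smad6 in all 4 libraries, cKO Rep1 included, where only 5 cells had a Smad6 UMI. It was also higher among cardiac cells with a Bmp2 UMI in all 4 libraries, for example 59.2% against 56.9% in cHet Rep2. In cKO Rep1 only 1 cell had a Bmp2 UMI. With Bmp7 the direction differed between libraries, for example 58.6% against 57% in cHet Rep2 and 63.6% against 65.1% in cKO Rep2. In pSHF the share was also higher among cells with Smad6 in all 4 libraries, at 48.0% against 28.6%, 40.6% against 35.8%, 36.4% against 26.1% and 33.1% against 32.1%. In aSHF the same shares were close together, at 35.2% and 36.0% in cHet Rep1 and 31.6% and 28.8% in cKO Rep2. In MLPs, cells with a Grem1 UMI had an Id1 UMI less often than cells without one in each library: 42.8% against 44.5% and 50.1% against 55.6% in cHet (Rep1 and Rep2), and 41.1% against 48.0% and 45.2% against 52.0% in cKO. For Id2 the share was lower among cells with Grem1 in 3 of 4 libraries (71.8% against 75.7% in cKO Rep1, 86.4% against 87.9% in cHet Rep2 and 88.1% against 89.9% in cKO Rep2) and higher in cHet Rep1 (75.4% against 74.6%). The mean Id2 UMIs per cell were instead higher with Grem1 in cHet Rep1 (1.81 against 1.78), cKO Rep1 (1.94 against 1.80) and cKO Rep2 (3.71 against 3.47). In cHet Rep2 they were lower (3.32 against 3.39). For Id3 the share was higher among cells with Grem1 in all 4, for example 70.2% against 67.3% in cKO Rep1, but the mean Id3 UMIs per cell were lower in both cHet libraries (1.38 against 1.40 and 1.44 against 1.49). For Bmp4 the share was higher with Grem1 in cHet Rep1 (25.4% against 19.3%) and cKO Rep2 (20.5% against 17.8%). It was lower in cKO Rep1 (16.1% against 23.3%) and cHet Rep2 (15.5% against 20%). Cells of a library are not replicates, so these shares are descriptions over 4 libraries with no test.

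Levels of the members also differed between replicates, which differ in kit, pool and Cell Ranger version, and these cannot be told apart. Of 157 member-type pairs at 10 CPM or more, both Rep2 libraries were above both Rep1 libraries in 72.6% and the reverse held in 10.8%, against 67.3% and 16.5% of all 181425 gene-type pairs at that level, on plain CPM. On the TMM-scaled levels given above these shares of the member pairs were 57.3% and 20.4%, with no share over all genes available on that scale. On that scale Id1 and Id2 were each higher in both Rep2 libraries in 19 of 21 types, Bmp4 was higher in both Rep1 libraries in 15 of 19, and Id3 was higher in both Rep2 libraries in 8 types and in both Rep1 libraries in 10, whereas on plain CPM these counts for Id3 were 18 and 1. Genotypes were therefore compared within replicates, with the replicate as a block. For the comparison of genotypes, CPM were scaled by TMM within each type, so they can differ a little from the levels above.

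In all cells of a library together, none of the 10 members passed the test of cKO against cHet. By edgeR's quasi-likelihood test with Benjamini-Hochberg adjustment, 0 of 10 passed an adjusted p of 0.05, beside 0% of all 20126 genes tested, no member had an unadjusted p under 0.05 (0 of 10), and the count by DESeq2 was 0 as well. The largest difference was that of Bmp7, at 9.90 and 10.2 CPM in cHet and 7.01 and 9.60 CPM in cKO (log2 fold change -0.29 ± 0.12 SE, adjusted p = 0.899, edgeR). For Grem1 the log2 fold change was -0.01 ± 0.08, for Id1 0.02 ± 0.05, for Id2 0.04 ± 0.05 and for Id3 0.03 ± 0.05.

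By type, 2 of the 192 member-type pairs that passed the filter on low counts (of 210 pairs) were called, and both were lower in cKO: Id2 in endothelial progenitors and Id1 in cluster 9. That is 1.04% of the pairs, beside 0.447% of all 262703 gene-type pairs. In 23 pairs, or 12%, the unadjusted p was under 0.05, against 6.32% of all gene-type pairs. The log2 fold changes had a median of -0.01, with 89 pairs higher and 98 lower in cKO. Both replicates showed the same sign in 45.8% of the member pairs against 51.3% of all gene-type pairs, and the genotypes did not overlap in 32 member pairs, or 16.7%, against 16.2% of all gene-type pairs. Both shares of the members were near those of all genes. The signs of the members were read from values rounded to 2 decimals, and a value of 0.00 counted as neither higher nor lower. For all genes unrounded values were used, so the same-sign share of the members is a low estimate. Of the 18 pairs left out, 6 were of Bmp2, 8 of Grem1, 3 of Bmp7 and 1 of Bmp5, and they belonged to types with few UMIs of the gene.

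**Figure D4:**
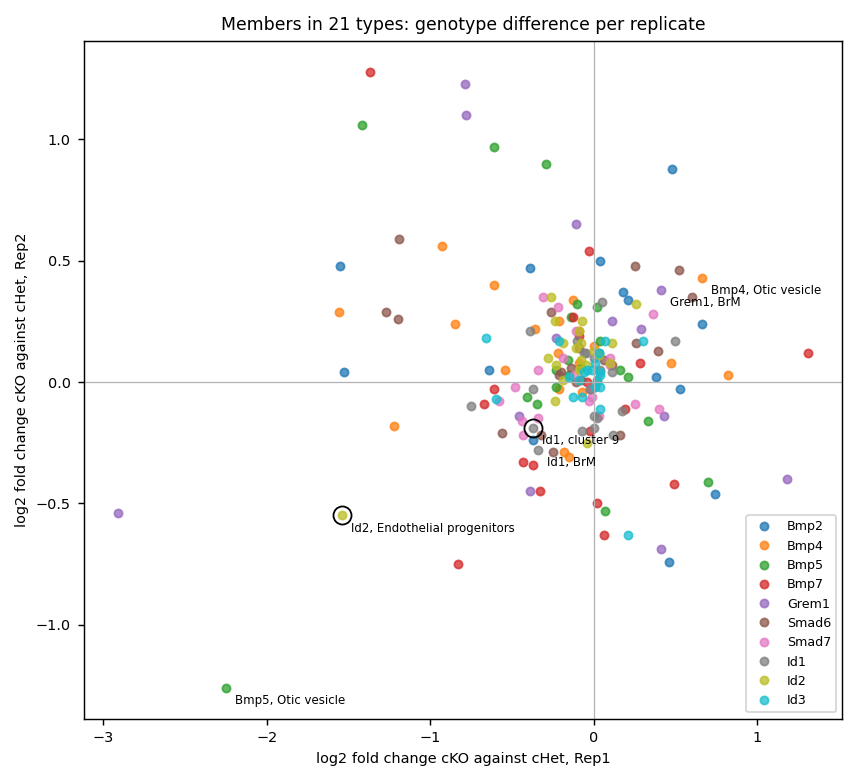
Log2 fold change of cKO against cHet in Rep1 (x axis) and Rep2 (y axis) for the 192 member-type pairs tested; each point is a member in a type, colored by gene, and rings mark the 2 called pairs. Points in the lower left were lower in cKO in both replicates, as Id2 in endothelial progenitors and Bmp5 in otic vesicle were.

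Id2 fell in endothelial progenitors, the type with its lowest mean over the 4 libraries; in the cHet libraries alone, cluster 2 was lower (80.9 and 93.2 CPM against 98.8 and 96.9 CPM on the scale across types). The libraries held 107 and 96.2 CPM in cHet (Rep1 and Rep2) and 35.9 and 65.2 CPM in cKO, from 163 and 229 UMIs in cHet and 30 and 138 UMIs in cKO. Both cKO libraries were below both cHet libraries, and the log2 fold changes were -1.54 in Rep1 and -0.55 in Rep2. The fit gave -0.91 ± 0.18 (SE, adjusted p = 0.000128, edgeR's quasi-likelihood test), in a type in which 1.83% of all genes tested were called. The other Id genes did not pass in these cells: Id1 was at 174 and 217 CPM in cHet and 173 and 197 CPM in cKO (log2 fold change -0.08 ± 0.13, adjusted p = 0.948, edgeR), and Id3 at 284 and 197 CPM in cHet and 179 and 223 CPM in cKO (-0.20 ± 0.13, adjusted p = 0.743, edgeR). The call rests on few cells, 35 in cKO Rep1, at median depths of 14788 to 26458 UMIs per cell across libraries. It was lost under DESeq2 (adjusted p = 1), without the replicate block (adjusted p = 1, edgeR) and after thinning to 5000 UMIs (-0.71, adjusted p = 0.685, edgeR). With 1 library left out, in fits without the block, Id2 had log2 fold changes between -1.50 and -0.63. The summed level of the 6 mesenchyme markers moved with it, at 314 and 186 CPM in cHet and 139 and 160 CPM in cKO, with none of the 6 at 0, as did that of the 7 pSHF markers, at 27.9 and 8.76 CPM in cHet and 6.38 and 6.30 CPM in cKO; their part in the result was not tested. The 5 endothelial progenitor markers summed to 898 and 1597 CPM in cHet and 1138 and 1754 CPM in cKO.

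Id1 fell in cluster 9, whose leading genes include Tagln and Myl9, of smooth muscle, and Foxl1 and Foxf2, of mesenchyme. The libraries held 173 and 239 CPM in cHet and 134 and 210 CPM in cKO (Rep1 and Rep2), so the genotypes overlapped across replicates but cKO was lower within each. The log2 fold change was -0.37 in Rep1 and -0.19 in Rep2, and -0.27 ± 0.07 in the fit (adjusted p = 0.0242, edgeR's quasi-likelihood test), in a type in which 1.46% of all genes tested were called. The call held only under RLE scaling among the alternatives tried. The log2 fold change was -0.26 or -0.27 under DESeq2, without the low-count filter, without the block and with doublets kept, -0.22 with the pathway genes kept and -0.13 after thinning. With 1 library left out, the fits had no block and so also hold the difference between replicates. The log2 fold change was then 0.02 (without cKO replicate 1), -0.00 (without cHet replicate 2), -0.48 (without cHet replicate 1) or -0.63 (without cKO replicate 2). With a minimum of 1000 genes it was -0.01, in a cluster that held 20.3% of the original cells. The 6 epithelium markers summed to 10.2 and 12.3 CPM in cHet and 6.62 and 5.35 CPM in cKO in these cells, none at 0, and their part in the result was not tested. Neither Id2 (0.09 ± 0.07) nor Id3 (-0.04 ± 0.08) passed in cluster 9.

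Id1 was also lower in BrM, where it did not pass: 198 and 308 CPM in cHet and 157 and 253 CPM in cKO, with a log2 fold change of -0.34 in Rep1 and -0.28 in Rep2 (fit -0.31 ± 0.07, adjusted p = 0.108, edgeR). In BrM, which joins clusters 10, 12 and 13 in a mix that differed between libraries, 0.281% of all genes were called. The part of this mix was not tested. The 6 mesenchyme markers, none at 0, summed to 322 and 277 CPM in cHet and 228 and 236 CPM in cKO in BrM. The 5 endothelial progenitor markers summed to 34 and 39.7 CPM in cHet and 11 and 24.1 CPM in cKO. The 6 endothelium markers summed to 38.5 and 42.3 CPM in cHet and 28.4 and 29.9 CPM in cKO. The 6 BrM markers summed to 430 and 656 CPM in cHet and 509 and 830 CPM in cKO. The part of these markers was not tested. Id1 in BrM came under the threshold with RLE scaling (adjusted p = 0.0352, edgeR), without the filter on low counts (0.0071) and with a minimum of 1000 genes per cell (0.0178). It also did so with doublets kept (0.0229) and with the members and pathway genes kept among the variable genes (0.00556). It did not pass under DESeq2, without the replicate block or after thinning, where 0 member-type pairs were called. The share of all genes called was not available for any of these alternatives. Grem1 went the other way in BrM, at 23.5 and 33.1 CPM in cHet and 31.4 and 43.0 CPM in cKO. Its log2 fold change was 0.41 in Rep1 and 0.38 in Rep2 (fit 0.39 ± 0.10, adjusted p = 0.161, edgeR), and it passed without the low-count filter (0.0204) and with the pathway genes kept (0.0176). With 1 library left out it lay between 0.14 (without cKO replicate 2) and 0.66 (without cHet replicate 2), with 0.17 without cHet replicate 1 and 0.60 without cKO replicate 1. In MLPs, where Grem1 was highest, the libraries held 82.4 and 121 CPM in cHet and 89.2 and 145 CPM in cKO, and the log2 fold change was 0.19 ± 0.07 (adjusted p = 0.678, edgeR), beside 0.0214% of all genes called in that type.

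**Figure D5:**
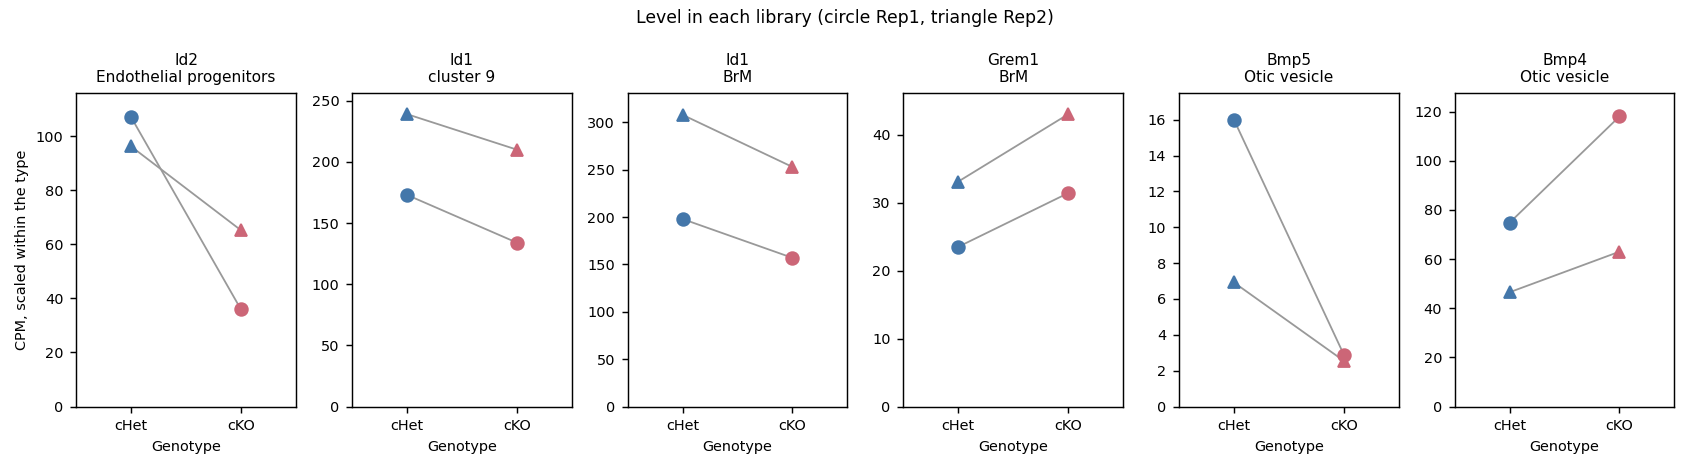
Level of 6 member-type pairs in each library (CPM, TMM-scaled within the type; axes start at 0); lines join the libraries of a replicate. Id2 in endothelial progenitors and Bmp5 in otic vesicle had both cKO libraries below both cHet libraries, while for Id1 and for Grem1 in BrM the genotypes differed within each replicate but overlapped across replicates.

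In the otic vesicle, the epithelial primordium of the inner ear, 8 members could be tested and none was called, beside 0.0721% of all genes. All 8 had the same sign in both replicates, 6 higher and 2 lower in cKO, and 5 had an unadjusted p under 0.05, while of all genes tested there 51.5% had the same sign in both replicates and 5.21% an unadjusted p under 0.05. Bmp4, which is known from the sensory patches of the otic epithelium, was at 74.8 and 46.5 CPM in cHet and 118 and 63.0 CPM in cKO (log2 fold change 0.55 ± 0.13, adjusted p = 0.266, edgeR). Id1 was at 330 and 358 CPM in cHet and 469 and 404 CPM in cKO (0.33 ± 0.10, adjusted p = 0.499, edgeR), and Id2 at 363 and 479 CPM in cHet and 436 and 600 CPM in cKO (0.30 ± 0.08, adjusted p = 0.418, edgeR). Id3 was at 612 and 469 CPM in cHet and 755 and 526 CPM in cKO (0.23 ± 0.08, adjusted p = 0.665, edgeR). Bmp4 and the 3 Id genes were thus higher in cKO within each replicate, but the ligands Bmp5 and Bmp7 were lower in both. Bmp7 was at 28.2 and 28.8 CPM in cHet and 21.7 and 22.6 CPM in cKO (-0.36 ± 0.19, adjusted p = 0.993, edgeR). Bmp5, Bmp7, Smad7 and Id1 were without overlap between genotypes, as were 18.7% of all genes tested there. Bmp5 was the member with the largest difference: 16.0 and 6.92 CPM in cHet and 2.90 and 2.55 CPM in cKO, from 34 and 25 UMIs in cHet and 6 and 15 UMIs in cKO (log2 fold change -1.85 ± 0.39, adjusted p = 0.178, edgeR). With doublets kept and cells clustered again, Bmp5 was at -0.32 (adjusted p = 0.999, edgeR). Leaving out 1 library, in fits without the block, moved Bmp4 to between 0.10 (without cKO replicate 1) and 0.97 (without cKO replicate 2), with 0.27 without cHet replicate 2 and 0.96 without cHet replicate 1. In the same fits Id3 moved to between -0.01 (without cKO replicate 1) and 0.48 (without cKO replicate 2). Thinning gave 0.23 for Bmp4. Without the filter on low counts Bmp4, Bmp5, Id1 and Id2 passed, at adjusted p = 0.00988, 0.000588, 0.0144 and 0.0325 (edgeR). No share of all genes called was available without that filter. The 4 facial MLP markers summed to 39.2 and 22.9 CPM in cHet and 18 and 18.5 CPM in cKO in these cells, none at 0, and the 6 markers of BrM, the type with the second-highest level of Bmp5, to 51.8 and 29.1 CPM in cHet and 18 and 24.1 CPM in cKO, also none at 0; the 8 markers of aSHF, where Bmp5 was highest, summed to 224 and 209 CPM in cHet and 191 and 227 CPM in cKO. The 7 pSHF markers, none at 0, summed to 8.57 and 9.09 CPM in cHet and 2.94 and 1.94 CPM in cKO. The part of these cells in the Bmp5 counts was not tested. The 7 otic markers summed to 470 and 676 CPM in cHet and 470 and 738 CPM in cKO. The 6 epithelium markers summed to 956 and 1120 CPM in cHet and 1211 and 1124 CPM in cKO. The 6 ectoderm markers, 1 of them at 0, summed to 48.1 and 43.6 CPM in cHet and 22.2 and 39.3 CPM in cKO. The 6 endothelium markers summed to 48.1 and 26 CPM in cHet and 23.1 and 24.1 CPM in cKO. The part of these markers in the result was not tested.

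In cardiac muscle, where 3 of the 4 ligands and both inhibitory Smads were highest, no member was called, beside 0.328% of all genes. The replicates differed in sign for most: Bmp4 had a log2 fold change of -0.85 in Rep1 and 0.24 in Rep2 (fit -0.17 ± 0.14), Smad6 of -1.20 and 0.26 (-0.20 ± 0.16) and Bmp2 of -1.55 and 0.48 (0.05 ± 0.20). Id1 and Id3 were lower in both replicates, Id1 at 335 and 538 CPM in cHet against 198 and 501 CPM in cKO (fit -0.38 ± 0.13, adjusted p = 0.303, edgeR) and Id3 at 393 and 405 CPM against 258 and 385 CPM (-0.31 ± 0.12, adjusted p = 0.639, edgeR). The Rep1 values of cKO come from the 38 cells noted above.

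For the remaining members the pair with the smallest unadjusted p did not pass either. Bmp7 in pSHF had a log2 fold change of -0.37 ± 0.15 (adjusted p = 0.425, edgeR; 1% of all genes called in that type; genotypes not overlapping), from 132 and 288 UMIs in cHet and 69 and 212 UMIs in cKO. Bmp7 was lower in cKO in 12 of the 18 types tested and lower in both replicates in 7 of them, with a median of -0.17. Of all gene-type pairs, 25.4% were lower in both replicates and 26% higher in both. Bmp2 in cluster 0 (led by Pcdh9 and Galntl6) was higher, at 0.72 ± 0.28 (adjusted p = 0.36, edgeR), from 23 and 24 UMIs in cHet and 59 and 48 UMIs in cKO. With 1 library left out it was 0.19 (without cHet replicate 2), 0.31 (without cKO replicate 1), 1.00 (without cKO replicate 2) or 1.32 (without cHet replicate 1), and with the pathway genes kept it was 0.43. Bmp2 was higher in 11 of 15 types, with a median of 0.10. By type, 48% to 53% of all genes tested were higher in cKO. All types come from the same libraries, so these counts of types are descriptions. Smad6 in cluster 15 (led by Kcnmb2 and Cyp26a1) was at 0.44 ± 0.18 (adjusted p = 0.973, edgeR), and Smad7 in BrM at -0.23 ± 0.10 (adjusted p = 0.686, edgeR). The Smad6 value was 0.71 after thinning; with a minimum of 1000 genes per cell only 3.16% of the cells of cluster 15 stayed together under its number, so that setting gives no value for the same cells. The Smad7 value was -0.06 after thinning and, with 1 library left out, lay between -0.45 (without cKO replicate 2) and -0.05 (without cKO replicate 1), with -0.13 without cHet replicate 2. For Smad7 no pair had an unadjusted p under 0.05, and its log2 fold changes stayed between -0.30 and 0.32 in all 21 types.

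In the other types no member was called either. For ectoderm, endothelium, neuronal cells and aSHF, with 9, 8, 10 and 10 members tested, 0% of all genes were called, and no member had an unadjusted p under 0.05. In aSHF, where Bmp5 was highest, 9 of the 10 members were lower in cKO, with a median log2 fold change of -0.04, and 3 of them were lower in both replicates; of all genes tested there 50.2% were higher, the median was 0.00 and 24.9% were lower in both replicates. Endoderm (8 members tested, 0.104% of all genes called) had 4 members higher and 4 lower. Among the unnamed clusters the share of all genes called was 0.0259% in cluster 15, 0.571% in cluster 16, 0.914% in cluster 2, 0.0183% in cluster 20, 0.0609% in cluster 22 (led by Barx1 and Dlx2) and 0.437% in cluster 1 (led by Cyp26a1 and Cyp26c1), and the median log2 fold changes of the members there lay between -0.01 and 0.06. In cluster 20, Bmp4 (-0.88 ± 0.35) and Bmp7 (-0.85 ± 0.37) had an unadjusted p under 0.05, each with an adjusted p = 1 (edgeR).

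Whether the genotype effect differed between types was tested for each gene with 1 term per type. No member passed by edgeR's quasi-likelihood test, beside 0.915% of the 16822 genes tested. Id2 came closest (adjusted p = 0.136, edgeR), followed by Id1 (adjusted p = 0.513, edgeR), and these were the 2 members with an unadjusted p under 0.05. DESeq2 called 1 member, Id2. It also passed after thinning (adjusted p = 0.00762, edgeR) and without the filter on low counts (adjusted p = 5.5e-08, edgeR), where 6 members passed. Under these alternatives no share of all genes was available. By the main test, the fall of Id2 in endothelial progenitors was not shown to differ from its course in other types.

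The other genes of the pathway were read from a list of 41 genes, of which 37 could be tested for a difference between types, and none of these passed. By type, 5 of the 559 pathway gene-type pairs tested (of 861) were called, 2 higher and 3 lower in cKO, beside 0.447% of all gene-type pairs. Of the pairs tested 299 were higher and 253 lower, with a median log2 fold change of 0.02. The called genes described here had different roles, and 0 pathway pairs were called without the replicate block. Msx2, a homeobox target of BMP signaling, rose in cluster 4, from 51.9 and 63.6 CPM in cHet to 72.0 and 94.5 CPM in cKO (log2 fold change 0.53 ± 0.07, adjusted p = 0.000482, edgeR; 0.492% of all genes called there). Acvrl1, the type I receptor of endothelium that binds BMP9 and BMP10, fell in cluster 0, from 7.22 and 6.84 CPM to 3.13 and 3.06 CPM (-1.18 ± 0.18, adjusted p = 0.00919, edgeR; 1.15% called), and in cluster 9, from 6.07 and 7.14 CPM to 2.78 and 3.63 CPM (-1.02 ± 0.30, adjusted p = 0.0464, edgeR). Both are low levels beside the 48.3 ± 6.90 CPM of Acvrl1 in endothelium. In cluster 5, 0.515% of whose genes were called, Fst, a secreted antagonist that binds activins and BMPs, fell from 187 and 132 CPM in cHet to 152 and 111 CPM in cKO (-0.28 ± 0.06, adjusted p = 0.0328, edgeR), lower within each replicate but with overlap across replicates. By role, 2 of 138 pairs of receptors, 2 of 151 pairs of extracellular antagonists and 1 of 43 pairs of other target genes were called. For the other ligands (31 pairs), the coreceptors with the pseudoreceptor Bambi (76), the signal transducers (78) and the ubiquitin ligases (42), 0 pairs were called by edgeR, with 4, 17, 1 and 2 at an unadjusted p under 0.05, and DESeq2 called 1 pathway pair in all. Of all gene-type pairs, 6.32% had an unadjusted p under 0.05. Bambi made up 11 of the 17 pairs. It was higher in cKO in 17 of 21 types and lower in 3, with a median log2 fold change of 0.31. Its smallest adjusted p was 0.0917 (edgeR).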

How the data were processed

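The deposited files hold UMI counts per gene and barcode from 10x 3′ single-cell RNA-seq, made by the authors with Cell Ranger (per the file headers, 7.0.1 in the Rep1 libraries, and 8.0.1 in those of Rep2; mm10 per the labels), neither scaled nor corrected for free RNA. Rep1 used Next GEM v3.1 and Rep2 GEM-X kits, so the replicate number marks a kit. Barcodes with at least 3000 genes, at most 10% mitochondrial and at most 5% hemoglobin UMIs were kept, and the barcodes with the highest Scrublet scores were removed by a threshold set from the expected doublet share (0.8% or 0.4% per 1000 barcodes in Rep1 or Rep2), which removed slightly more than that share in each library (5.78% against 4.99% in cHet Rep1, where the excess was largest), since its own threshold called 0.015% to 1.74%. Cells were clustered (Python 3.11.15, scanpy 1.11.5, leidenalg 0.10.2) on 2000 variable genes without the members and pathway genes, 30 components aligned by replicate, 20 neighbors and Leiden resolution 0.8. A cluster took a name from at least 3 markers of a list, and clusters of the same name were joined. Counts were summed per type and library (at least 20 cells) and tested with edgeR 4.0.16 in R 4.3.3. The fit used TMM, filterByExpr, the quasi-likelihood test and a replicate block, with Benjamini-Hochberg adjustment within a type and a threshold of 0.05. The block was kept because deviations of same-numbered libraries correlated at 0.628 to 0.828 in all 21 types. Named genes were the 10 members, the pathway genes past the threshold in any type, and the 3 genes most like each member across types; the types described for each member were chosen after values were seen. With n = 2 pools per genotype, p-values measure the spread between these pools only. Shares of cells carry counting error. Members, pathway list and markers were chosen with earlier results of these data known. Alternatives of the test were DESeq2 1.42.0, RLE scaling, no low-count filter, no block and each library left out. Fits with a library left out had no replicate block, so their values also hold differences between replicates. Alternatives of the cells were 1000 genes per cell, doublets kept, members and pathway genes kept among variable genes, and 5000 UMIs per cell. Gene positions are from GENCODE M21, which held 99.8% of identifiers. The values of 1 called pathway gene are not reported here.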

Additional observations from a re-analysis of the deposited data

How the results depend on the processing

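Of 12 alternatives, RLE scaling, doublets kept, and members and pathway genes kept among the variable genes left the count of member-type pairs called (2) within 1.5 times. With doublets kept, however, the called pairs were Id1 in BrM (-0.29, adjusted p = 0.0229, edgeR) and Bmp4 in cluster 2 (-0.57, adjusted p = 0.00589, edgeR), not the original pairs. DESeq2 called 0, no filter on low counts 7, no replicate block 0, a minimum of 1000 genes per cell 1 and thinning to 5000 UMIs 0. The share of all genes called was available for the main setting only. The counts of members and pathway genes under the alternatives can therefore not be set beside all genes. Fits with a library left out had no replicate block and 1 library in a genotype, so only their log2 fold changes are given. Members called in all cells stayed at 0 throughout. Members whose genotype effect differed between types were 1 under DESeq2, 6 without the filter and 1 after thinning, against 0; this test could not be run with a library left out. Pathway pairs called (5) were 1 under DESeq2, 13 without the filter, 0 without the replicate block, 9 with 1000 genes and 2 after thinning. In the fits with a library left out, which also hold the difference between replicates, the sign turned for 2 pairs without cKO replicate 1. These were Id1 in cluster 9 (0.02, range with a library left out -0.63 to 0.02) and Id3 in otic vesicle (-0.01, range -0.01 to 0.48). Id2 in endothelial progenitors was -0.97 without the replicate block, -1.02 under DESeq2 and -0.71 after thinning, and no value was obtained with doublets kept, when no cluster took this name, or with 1000 genes, when the cluster of this name held 72 cells (4, 0, 34 and 34). With a library left out, the lone library of its genotype was assumed to vary like the others. Mean levels that moved were Bmp5 in aSHF (141 CPM with doublets kept), Id1 in cluster 5 (634 CPM with 1000 genes) and Id3 in endothelium (645 CPM with 1000 genes and 644 CPM with doublets kept). Clustering again changed which cells share a number: cluster 2 with doublets kept held 77.6% of its original cells, aSHF 74.8%, and cluster 5 with 1000 genes 72.2%. The cause of these changes was not tested. Rep1 and Rep2 differ in kit, and n = 2 per genotype limits every call.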
